A study of Mus musculus with 45 samples.

Results

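Of the 17 adipocyte arrays of mice fed a Western diet for 16 weeks, 10 carried a compressed range of expression values. These narrow-range arrays were chosen by the 95th percentile of their own deposited log2 values over 45037 probe sets, which was below a fixed boundary in DW16 mice 1 to 7 and EW16 mice 1 to 3. The other 7 arrays (DW16 mice 8 and 9, EW16 mice 4 to 8) were above it, and the whole series holds 45 arrays, 1 for each mouse. All mice were C57BL/6 females without ApoE (ApoE-/-). D mice additionally carried heterozygous deletions of the insulin receptor and of insulin receptor substrate 1 (IR+/- IRS1+/-), whereas E mice carried neither. The Western diet of both groups began at 8 weeks of age, and adipocytes came from the parametrial and periovarian fat of each mouse. The remaining 28 arrays belong to DW8 (n = 5), EW8 (n = 6), DC16 (n = 5), EC16 (n = 5) and DC8 (n = 7), where W is Western diet, C is Chow and the number gives the weeks on the diet. A hybridization, scan or extraction batch is not given in the sources used here, so whether the narrow range goes with such a batch or with the mice cannot be told apart.

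Adipocytes store triglyceride, release hormones such as adiponectin and leptin, and take up glucose when insulin activates its receptor, the IRS proteins and downstream kinases. Preparations of adipocytes from fat also carry RNA of endothelial cells, macrophages, fibroblasts and mesothelium. The Affymetrix array reads each transcript with a set of short probes, and the RMA method condenses them into 1 log2 value, so that a difference of 1 is a 2-fold difference. Many genes have more than 1 probe set, and the ending of a probe set name tells how specific its probes are: x_at marks sets with probes that also match other sequences, and s_at sets shared by several transcripts.

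The 95th percentile ranged between 10.14 and 10.85 in the 10 narrow-range arrays (median 10.43), against 10.99 to 11.08 in the 7 other arrays (median 11.04) and 10.95 to 11.14 in the 28 arrays of the other groups. The values nearest to the boundary were 10.85 in DW16 mouse 1 and 10.99 in DW16 mouse 9. The SD over all probe sets was 2.11 to 2.35 in narrow-range arrays and 2.42 to 2.48 in the other arrays, and the 28 further arrays had 2.39 to 2.53. The arrays were thus compressed at both ends, since the 5th percentile was 3.51 to 3.55 in narrow-range arrays against 3.42 to 3.50 in the other arrays, while the array medians overlapped (5.57 to 5.67 against 5.56 to 5.60). Regressed on the mean of the 28 arrays, a narrow-range array had a slope of 0.827 to 0.931 and one of the other arrays a slope of 0.964 to 1.00. All of these measures describe the split, which used the same values.

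**Figure D1:**
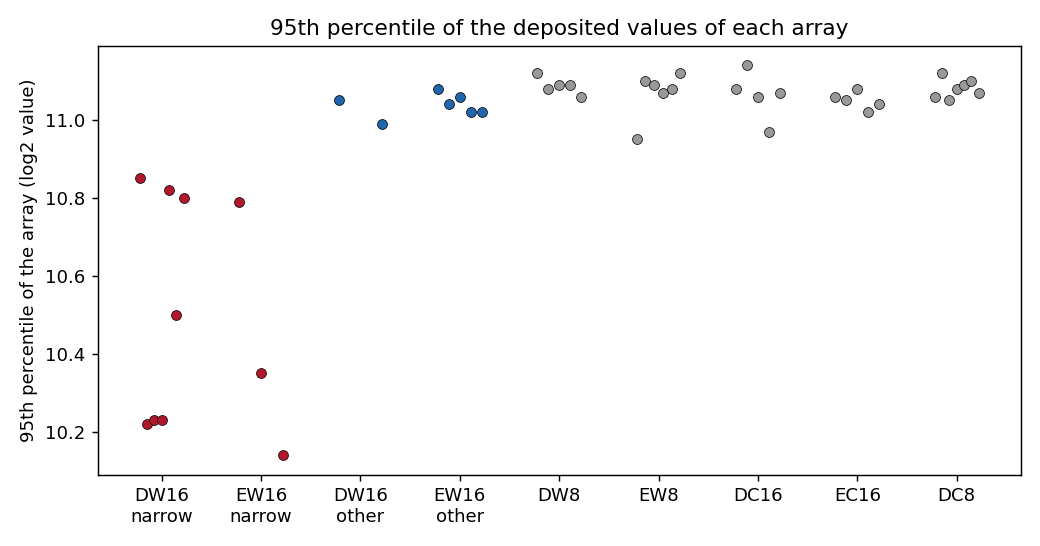
95th percentile of the deposited log2 values (vertical axis) of each of 45 arrays (points) by group, with the DW16 and EW16 arrays divided into narrow-range (red) and other (blue). The narrow-range arrays lie between 10.14 and 10.85 and all remaining arrays between 10.95 and 11.14.

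The narrow-range arrays themselves fell into a set of 6 (DW16 mice 2, 3, 4 and 6, EW16 mice 2 and 3) with a 95th percentile of 10.14 to 10.50, and a set of 4 (DW16 mice 1, 5 and 7, EW16 mouse 1) with 10.79 to 10.85. The highest value on the array was 13.79 to 14.28 in the 6 arrays, against 14.90 to 14.97 in the 4 arrays and 14.87 to 14.96 in the other 7 arrays. Both sets held D and E mice. These sets were read from the data, and they are used here only to describe the spread among the 10 arrays.

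The size of the difference depended on the level of the probe set. When probe sets were ordered by mean level over all arrays and divided into 10 bins, the median difference between narrow-range and other arrays, with genotype as covariate, was −0.60 on the log2 scale in the highest bin and 0.08 in the lowest bin. The 6 most narrow arrays differed from the other arrays by a median of −0.80 in the highest bin and the 4 least narrow arrays by −0.24. After quantile normalization, which gives all 45 arrays the same distribution and leaves only their order of probe sets, the medians of the 10 bins lay between −0.05 and 0.04.

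**Figure D2:**
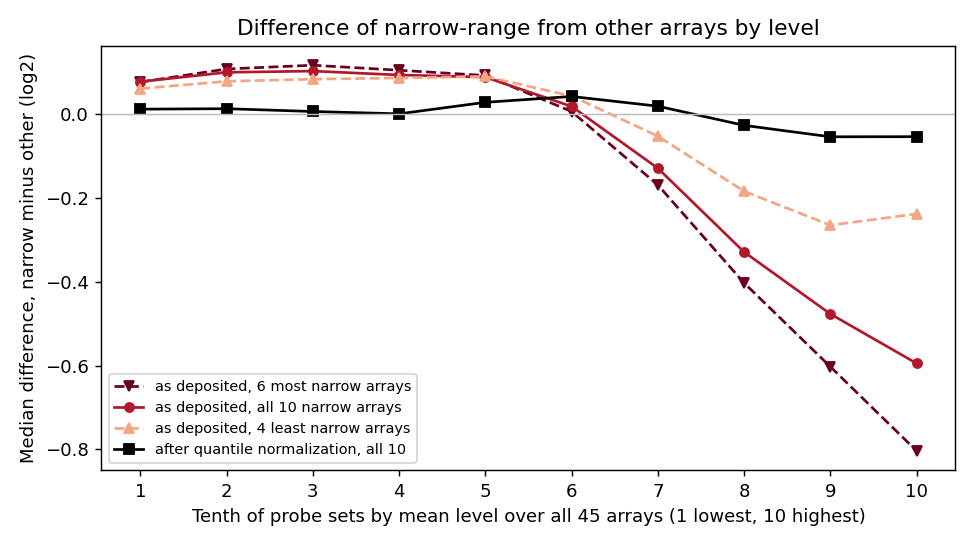
Median log2 difference of narrow-range minus other arrays (vertical axis) in 10 bins of probe sets ordered by mean level over all 45 arrays (horizontal axis), as deposited for all 10, for the 6 most narrow and for the 4 least narrow arrays, and after quantile normalization. As deposited, the difference reached −0.60 for all 10 arrays in the highest bin, and after quantile normalization it stayed between −0.05 and 0.04.

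The order of probe sets also differed. The rank correlation (Spearman) of an array with the mean of the 28 arrays was 0.969 to 0.981 in narrow-range arrays, against 0.985 to 0.996 in the other arrays. The 28 arrays, which enter this mean, had 0.980 to 0.996. The lowest of them, DC16 mouse 4, lay within the interval of the narrow-range arrays. After quantile normalization, pairs of narrow-range arrays correlated with a median r of 0.987 (0.977 to 0.991, 45 pairs), whereas pairs of 1 narrow-range and 1 other array had a median of 0.969 (0.960 to 0.980, 70 pairs). Pairs among the 7 other arrays had a median of 0.983 (0.966 to 0.996, 21 pairs). Pairs within 1 of the other 5 groups had a median of 0.993 (0.979 to 0.997, 66 pairs), higher than that of narrow-range pairs. A narrow-range D array paired with a narrow-range E array gave a median of 0.986, close to the value for all narrow-range pairs. The first principal component of all 45 arrays held 34.7% of the variance after quantile normalization, and every narrow-range array scored higher on it (0.213 or more) than any of the remaining 35 (0.003 or less). These correlations run across probe sets, which are not independent replicates. The other 7 arrays were not uniform: EW16 mice 5 to 8 correlated at 0.993 to 0.995 among themselves, and DW16 mouse 9 correlated with them at 0.966 to 0.968.

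As deposited, 295 of 45037 probe sets (0.655%) were at least 2-fold higher in narrow-range arrays and 2614 (5.8%) at least 2-fold lower, so that of 2909 past 2-fold (6.46%) 10.1% were higher. After quantile normalization the counts were 860 higher (1.91%) and 955 lower (2.12%), and of 1815 past 2-fold (4.03%) 47.4% were higher. The split of directions differed with the scaling: centring each array on its median gave 270 higher and 2859 lower, and giving each array the same median and SD gave 625 higher and 1318 lower. The 10 narrow-range arrays did not overlap with the 7 other arrays in 718 higher (1.59%) and 2734 lower (6.07%) probe sets as deposited, and in 1573 (3.49%) and 1468 (3.26%) after quantile normalization. On both scales, 541 probe sets (1.2%) were higher in every narrow-range array and 1398 (3.1%) lower. Set against all 35 remaining arrays, the narrow-range arrays lay above every one of them in 181 probe sets (0.402%) and below every one in 1527 (3.39%) as deposited, in 750 (1.67%) and 719 (1.6%) after quantile normalization, and in 149 (0.331%) and 702 (1.56%) on both scales. Since the split was made with the values of these arrays, no test was run on this contrast, and the counts are a description.

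Genes were named from probe sets with 1 gene symbol, no overlap on both scales and the same sign in D and E mice, 1 for each gene. Among these, the probe sets furthest above the other arrays after quantile normalization belonged to CRYL1 (an L-gulonate dehydrogenase), NRIP2 (a protein that binds nuclear receptors), LAPTM5 (a lysosomal protein of immune cells), E2F5 (a transcription factor of the cell cycle), PIK3CD (a catalytic subunit of PI3-kinase), BOLL (an RNA-binding protein of germ cells), PTPRK (a receptor tyrosine phosphatase), ARMC8 (a part of a ubiquitin ligase), IGBP1 (which binds protein phosphatase 2A), AIF1L (an actin-binding protein), PTBP1 (a splicing regulator) and 1 gene known by a cDNA clone name. The deposited value of the CRYL1 probe set was 9.17 at the lowest, 12.65 at the median and 13.41 at the highest in narrow-range arrays, against 7.41, 7.75 and 8.10 in the other arrays. The groups did not overlap, as the choice of genes required, and the difference was 4.17 (SE 0.64) as deposited and 4.70 (SE 0.75) after quantile normalization. NRIP2 was at 8.46, 11.41 and 12.12 in narrow-range arrays and at 6.94, 7.29 and 7.56 in the other arrays, a difference of 4.04 (SE 0.71) after quantile normalization. PIK3CD was at 10.23, 12.69 and 13.34 in narrow-range arrays and at 8.91, 9.07 and 9.33 in the other arrays, a difference of 3.50 (SE 0.64) on the same scale. Over the 12 genes the difference was 2.34 to 4.17 as deposited and 2.90 to 4.70 after quantile normalization.

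The 12 probe sets also varied among the narrow-range arrays, whose sets of 6 and 4 were read from the same deposited values. In all 12 the 6 most narrow arrays lay above the 4 least narrow arrays without overlap, by 1.89 to 3.19 (median 2.76) between the means. Over all 45037 probe sets the 6 arrays lay above the 4 without overlap in 732 (1.63%) and below them in 4683 (10.4%), and among the 860 at least 2-fold higher after quantile normalization they lay above in 152 (17.7%) and below in 135 (15.7%). CRYL1 was at 12.47 to 13.41 in the 6 arrays and at 9.17 to 10.92 in the 4 arrays. In the other 5 groups this probe set reached 9.98 in 1 array, above the lowest narrow-range array, and only 4 of the 12 (BOLL, ARMC8, IGBP1 and AIF1L) set the narrow-range arrays above all 35 remaining arrays on both scales.

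The difference was smaller in the further probe sets of the same genes, which 11 of the 12 have. These 37 probe sets differed by −1.55 to 1.36 after quantile normalization. The 3 further CRYL1 probe sets differed by −0.41 to 0.16 after quantile normalization, and the 5 further PIK3CD probe sets by −0.24 to 0.07. For PTBP1 the further probe sets differed by −1.55 and −0.07, and for E2F5 by −1.26 and 0.27, so 1 probe set of each gene was more than 2-fold lower while another was more than 2-fold higher. The same holds for LAPTM5, with −1.01 to 1.36 over 4 further probe sets. For PTBP1, E2F5 and LAPTM5 the direction thus depends on the probe set.

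**Figure D3:**
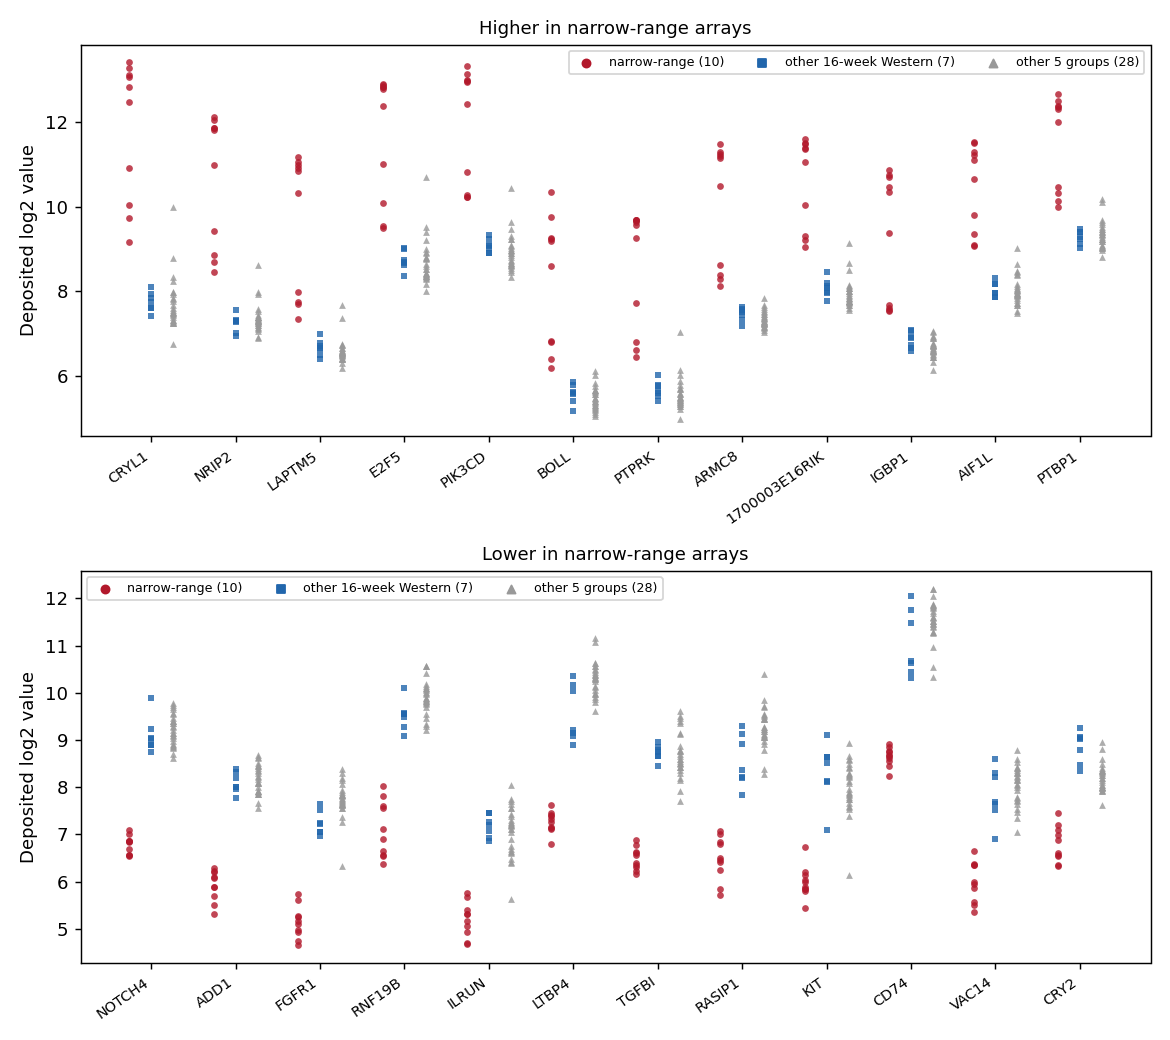
Deposited log2 values (vertical axis) of the 12 named probe sets above (top) and the 12 below (bottom) the other arrays in the narrow-range arrays, each point 1 array. They had the largest differences after quantile normalization among probe sets that met the choice of genes. That choice took probe sets with 1 gene symbol, no overlap on both scales and the same sign in D and E mice, 1 for each gene. In the top panel the narrow-range arrays spread over several log2 units in 2 sets (CRYL1 9.17 to 10.92 and 12.47 to 13.41), and in the bottom panel they lie close together (NOTCH4 6.54 to 7.10) and below the other arrays.

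By the same choice of genes, the probe sets furthest below the other arrays belonged to NOTCH4 (a Notch receptor of endothelium), ADD1 (adducin of the membrane skeleton), FGFR1 (a fibroblast growth factor receptor), RNF19B (a ubiquitin ligase), ILRUN, LTBP4 (which holds latent TGF-beta in the matrix), TGFBI (a matrix protein induced by TGF-beta), RASIP1 (a regulator of small GTPases in vessels), KIT (the receptor of stem cell factor), CD74 (the invariant chain of MHC class II), VAC14 (a scaffold of the PIKfyve lipid kinase) and CRY2 (a repressor of the circadian clock). NOTCH4 was at 6.54, 6.84 and 7.10 (lowest, median, highest) in narrow-range arrays, against 8.74, 9.03 and 9.89 in the other arrays, a difference of −2.22 (SE 0.14) after quantile normalization. CD74 was at 8.25, 8.67 and 8.92 in narrow-range arrays and at 10.32, 10.66 and 12.06 in the other arrays, a difference of −2.01 (SE 0.23). CRY2 was at 6.34, 6.74 and 7.45 in narrow-range arrays and at 8.35, 9.02 and 9.25 in the other arrays, a difference of −1.98 (SE 0.18). None of the 12 overlapped between the groups, as the choice of genes required, and the differences over the 12 spanned −2.22 to −1.98. In 10 of the 12 the narrow-range arrays were also below all 35 remaining arrays on both scales, with KIT and ILRUN as the exceptions. Unlike the higher probe sets, the 6 most narrow and the 4 least narrow arrays overlapped in all 12, and their means differed by −0.56 to 0.55. Of these genes 7 have 12 further probe sets, which differed by −1.81 to 0.54 after quantile normalization. A second FGFR1 probe set differed by −1.81, that of RNF19B by −1.24 and 1 of TGFBI by −1.19, whereas those of KIT (0.14), NOTCH4 (−0.09 and −0.08) and ILRUN (−0.11) lay near 0. The remaining probe sets differed by 0.40 and 0.54 for TGFBI, by 0.08 for FGFR1 and by −0.52 and 0.21 for ADD1.

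Of the 860 higher probe sets, 722 have 1 gene symbol, and the 1693 further probe sets of those genes had a median difference of 0.08. Of these, 9.81% were themselves at least 2-fold higher and 2.24% at least 2-fold lower, beside 1.91% and 2.12% of all probe sets, and 58.4% had the same sign. Of the 955 lower probe sets, 839 have 1 symbol, and the 1570 further probe sets had a median of −0.09, with 8.54% at least 2-fold lower and 2.42% at least 2-fold higher.

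Probe sets of the x_at kind were frequent among the higher ones. After quantile normalization, 192 of 2441 x_at probe sets (7.87%) were at least 2-fold higher and 21 (0.86%) at least 2-fold lower, while plain at probe sets had 1.22% higher and 1.89% lower. Among probe sets above the median level the shares were 11.6% higher and 1.35% lower for x_at, against 2.42% higher and 4.01% lower for plain at probe sets. The x_at share was 9.57% in D mice alone and 16.5% in E mice alone at these levels. As deposited it was 3.53%, against 0.738% for plain at probe sets.

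Adipocyte genes, which check the tissue label, had high values in both groups of arrays. ADIPOQ, which codes for adiponectin, was at 13.27, 13.79 and 14.30 in narrow-range arrays, against 14.49, 14.53 and 14.61 in the other arrays. FABP4, a fatty acid binding protein, was at 13.63 to 14.69 in narrow-range arrays and at 14.50 to 14.78 in the other arrays, and LPL (lipoprotein lipase) and RETN (resistin) were at 13.19 or more in all 17 in their probe sets with the highest mean. After quantile normalization these 4 differed by −0.28 to 0.16, against −0.78 to −0.35 as deposited. PPARG, the master regulator of adipocyte identity, differed by −0.59 as deposited and 0.01 after quantile normalization. LEP, which codes for leptin, was lower, at 9.41 to 11.95 in narrow-range arrays and 9.42 to 11.62 in the other arrays. LEP differed by −0.56 as deposited and −0.03 after quantile normalization, with 0.86 in D mice alone and −0.78 in E mice alone on the second scale. A second LPL probe set was at 11.37, 12.14 and 12.64 in narrow-range arrays and at 13.20, 13.49 and 14.04 in the other arrays, without overlap, and differed by −1.64 and −1.07 on these scales. CIDEC, a protein of lipid droplets, was at 11.11, 12.14 and 12.71 in narrow-range arrays, against 12.63, 12.92 and 13.65 in the other arrays, which overlapped, and differed by −1.27 and −0.68 (SE 0.22 and 0.20). Over the 19 measured genes of adipocyte identity and lipid storage the median difference was −0.73 as deposited, with 8 at least 2-fold lower, and −0.28 after quantile normalization, with 0 at least 2-fold lower and 15 below 0. PLIN1 and CFD were not matched to a probe set with 1 symbol and are not analysed here.

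All measured genes of triglyceride synthesis had differences below 0 after quantile normalization, 1 of them past 2-fold. The list of lipogenesis and triglyceride synthesis had a median difference of −1.19 as deposited, with 11 of 16 genes at least 2-fold lower, and −0.62 after quantile normalization, with 16 of 16 below 0 and 1 at least 2-fold lower. Over all 18193 genes, each read from its most highly expressed probe set, the medians were −0.05 and 0.01, and 7.89% of genes as deposited and 2.33% after quantile normalization were at least 2-fold lower. All 16 genes of this list lie above the median level of all probe sets, against 11607 of the 18193 genes. Most other lists likewise hold almost only such genes, so all genes are no level-matched reference. In the highest bin of probe sets 1085 of 4504 were at least 2-fold lower as deposited and 180 after quantile normalization. MLXIPL, the carbohydrate-responsive transcription factor ChREBP, was at 8.01, 9.18 and 9.88 in narrow-range arrays and at 9.14, 10.02 and 11.23 in the other arrays, with a difference of −1.02 (SE 0.35) after quantile normalization. In D mice alone MLXIPL differed by −1.84 on this scale and in E mice alone by −0.34. AGPAT2, an acyltransferase of triglyceride synthesis, differed by −0.94 (SE 0.24). The groups overlapped for all 16 genes of this list on both scales. Over all genes, 4.16% were lower without overlap after quantile normalization. The triglyceride lipase PNPLA2 is from the list of adipocyte identity and lipid storage. It did not overlap, with 11.36, 12.01 and 12.37 in narrow-range arrays and 12.90, 13.29 and 13.88 in the other arrays (−0.99, SE 0.15). LIPE, the hormone-sensitive lipase, differed by −0.74 (SE 0.14), and SLC2A4, the insulin-responsive glucose transporter, by −0.99 (SE 0.18). The second probe set of LIPE differed by 0.12 and that of SLC2A4 by −1.55. Fatty acid oxidation genes had a median of −0.81 as deposited and −0.37 after quantile normalization, with 0 of 18 at least 2-fold lower on the second scale, and ACADM, a dehydrogenase of medium-chain fatty acids, differed by −0.63 (SE 0.09).

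Among 33 insulin signaling genes, 10 were at least 2-fold lower as deposited and 3 after quantile normalization, with medians of −0.65 and −0.16. These 3 were TSC2, IRS3 and INPPL1. TSC2, a brake on the growth kinase complex mTORC1, was at 6.30, 6.64 and 7.14 in narrow-range arrays, against 7.53, 7.69 and 8.93 in the other arrays, and the difference was −1.63 (SE 0.20) as deposited and −1.49 (SE 0.20) after quantile normalization. The 28 arrays of the other groups had TSC2 at 8.34 to 9.15, above all narrow-range arrays. The median of the other 16-week Western arrays (7.69) lay below these 28 arrays as well, so a lower TSC2 was not particular to narrow-range arrays. IRS3, a substrate of the insulin receptor in rodent adipocytes, differed by −1.17 (SE 0.18), and INPPL1, the lipid phosphatase SHIP2, by −1.02 (SE 0.20). INPPL1 differed by −0.44 in D mice alone and by −1.51 in E mice alone. IRS2 was at 7.77, 8.51 and 8.96 in narrow-range arrays and at 8.13, 8.50 and 10.42 in the other arrays. These deposited medians of IRS2 lay side by side, and the difference with genotype as covariate was −0.85 (SE 0.26). After quantile normalization the medians were 8.78 in narrow-range and 8.41 in the other arrays, and the difference was −0.42 (SE 0.29). The 28 further arrays had deposited values of 9.21 to 10.53, above the medians of both narrow-range and other arrays. After quantile normalization IRS2 differed by −0.95 in D mice alone and by 0.02 in E mice alone. The transcription factor KLF4 was at 11.14, 11.64 and 12.98 in narrow-range arrays and at 12.35, 13.13 and 13.40 in the other arrays, with a difference of −0.90 (SE 0.29) as deposited and −0.34 (SE 0.19) after quantile normalization. Its second probe set was at 8.25, 8.53 and 9.10 in narrow-range arrays and at 8.56, 9.30 and 10.79 in the other arrays, with differences of −1.22 (SE 0.27) and −0.78 (SE 0.27). TSC2 did not overlap between the arrays on either scale, while IRS2 and both KLF4 probe sets overlapped on both scales.

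Immediate early genes, which respond within minutes to stimuli, were lower in narrow-range arrays, with a median of −0.91 and 14 of 29 at least 2-fold lower as deposited, and −0.34 and 5 of 29 after quantile normalization. FOSB, an AP-1 subunit, was at 9.02, 9.78 and 10.41 in narrow-range arrays, against 11.83, 12.34 and 12.63 in the other arrays, a difference of −1.81 (SE 0.14) after quantile normalization. KLF2, a transcription factor of endothelium, differed by −1.80 (SE 0.29) and ZFP36, which destabilizes cytokine messages, by −1.36 (SE 0.14), and neither overlapped. Among 21 NF-kB and cytokine genes 4 were at least 2-fold lower after quantile normalization (median −0.51). They included the NF-kB subunits RELA (−1.34, SE 0.14), RELB (−1.12, SE 0.15) and NFKB2 (−1.07, SE 0.23). RELA was at 9.66, 10.07 and 10.33 in narrow-range arrays and at 11.49, 11.67 and 12.32 in the other arrays. Of 22 interferon response and antigen presentation genes 3 were at least 2-fold lower (median −0.32): CD74, USP18, which removes the ubiquitin-like ISG15 (−1.41, SE 0.16), and TAP2, a peptide transporter (−1.19, SE 0.11).

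Several lists changed the sign of their median with the scaling. Oxidative phosphorylation genes had a median of −0.37 as deposited and 0.17 after quantile normalization, cytoplasmic ribosomal proteins −0.33 and 0.20, the proteasome −0.39 and 0.16, cholesterol synthesis and uptake −0.41 and 0.12, and nuclear noncoding RNAs −0.39 and 0.20. Hypoxia genes (−0.48 and −0.08) and ER chaperones (−0.59 and −0.02) were below 0 on both scales but at 0.03 and 0.04 when arrays were given a common median and SD, and cell cycle genes were near 0 throughout (0.00 and −0.04). No direction is given for these lists. Lists that stayed below 0 under each scaling were branched-chain amino acid breakdown and the TCA cycle (−0.93 and −0.36, 3 of 23 at least 2-fold lower after quantile normalization), splicing factors (−0.64 and −0.13, 2 of 29), chromatin remodelers (−0.60 and −0.19, 0 of 28), heat shock (−0.76 and −0.14, 1 of 13) and commonly used reference genes (−0.72 and −0.20, 0 of 9). Of all genes 2.33% were at least 2-fold lower after quantile normalization. On that scale the median of splicing factors was 0.02 in D mice alone and −0.25 in E mice alone. That of chromatin remodelers was 0.02 in D mice alone and −0.17 in E mice alone. No direction is given for these lists of splicing and chromatin genes either. Single members differed strongly within the lists named here. NDUFA5 and UQCRC1, subunits of respiratory complexes, differed by 1.90 (SE 0.24) and −1.14 (SE 0.14) after quantile normalization, and these signs held as deposited (1.33 and −1.72). NDUFA5 was at 11.50, 11.86 and 12.50 in narrow-range arrays and at 9.65, 9.88 and 11.92 in the other arrays, which overlapped, and its second probe set differed by 0.56. The proteasome subunit PSMB7 (−1.09, SE 0.14) and the splicing factors SRSF2 (−1.50, SE 0.17) and PRPF8 (−1.38, SE 0.15) did not overlap between the groups. For SRSF2 the 4 probe sets ranged between −1.50 and 0.70, and for RBM39, a further splicing factor, 12 probe sets ranged between −1.26 and 0.35. MALAT1, a nuclear noncoding RNA, was higher by 1.56 (SE 0.39) in its probe set with the highest mean, with 0.13 to 2.08 over 7 probe sets. In that probe set with the highest mean it differed by 0.70 in D mice alone and by 2.28 in E mice alone. Its deposited values overlapped, at 11.75 to 13.49 in narrow-range and 10.06 to 13.10 in the other arrays. The 28 further arrays, at 10.28 to 13.85, covered all narrow-range arrays. Among hypoxia genes SLC2A1, the basal glucose transporter, was higher by 1.31 (SE 0.15), but its 3 probe sets ranged between −0.92 and 1.31.

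Some marker lists of other cell types differed with the split, and others had medians near 0 after quantile normalization. Endothelial markers had a median of −1.16 as deposited and −0.72 after quantile normalization, with 9 and 4 of 16 genes at least 2-fold lower. After quantile normalization 13 of the 16 were below 0 and 3 above 0, with 6 lower and 1 higher without overlap. Their summed deposited log2 values were 135.9 to 145.1 in narrow-range arrays, against 154 to 159.3 in the other arrays, and their means after quantile normalization, 8.83 to 9.20 against 9.51 to 9.90, did not overlap either. TIE1, a receptor of endothelial cells, was at 5.85, 6.06 and 6.78 in narrow-range arrays and at 7.30, 7.85 and 8.69 in the other arrays (−1.76, SE 0.21). TEK, the angiopoietin receptor, differed by −1.53 (SE 0.21) and the adhesion molecule PECAM1 by −1.21 (SE 0.23). PECAM1 differed by −0.65 in D mice alone and by −1.665 in E mice alone. These 3 genes have the largest differences of the list. Mesothelial markers had a median of −0.66 after quantile normalization (3 of 12 at least 2-fold lower), with summed deposited values of 70.63 to 83.28 in narrow-range and 76.68 to 92.97 in the other arrays, which overlapped. The mesothelial median was −1.22 in D mice alone, which have only 2 other arrays, and −0.26 in E mice alone. The matrix and fibroblast list had a median of −0.33 (3 of 22), with deposited sums of 208.4 to 227 in narrow-range and 230.7 to 238.2 in the other arrays, but its means after quantile normalization overlapped (9.90 to 10.71 against 10.44 to 10.76). The matrix protein SPARC differed by −1.33 (SE 0.12) in its probe set with the highest mean, yet its 3 probe sets ranged between −1.33 and 0.85. Macrophage markers had a median of −0.25 as deposited and 0.02 after quantile normalization (1 of 19 at least 2-fold higher, 0 lower; summed values 156.1 to 188.7 and 164.5 to 174.6), and lymphocyte markers −0.13 (1 of 16 in each direction; 92.31 to 104.9 and 95.16 to 104.9). Smooth muscle and pericyte markers (−0.36, 0 of 9) and red blood cell markers (0.11, 0 of 4) had none past 2-fold after quantile normalization. The smooth muscle and pericyte median was −0.79 in D mice alone and −0.15 in E mice alone, and the red blood cell median −0.14 and 0.25. No array value is 0 in this data type, and the share of these cells in the differences of other genes was not tested. In bulk RNA, fewer cells of a type and less RNA per cell cannot be told apart.

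**Figure D4:**
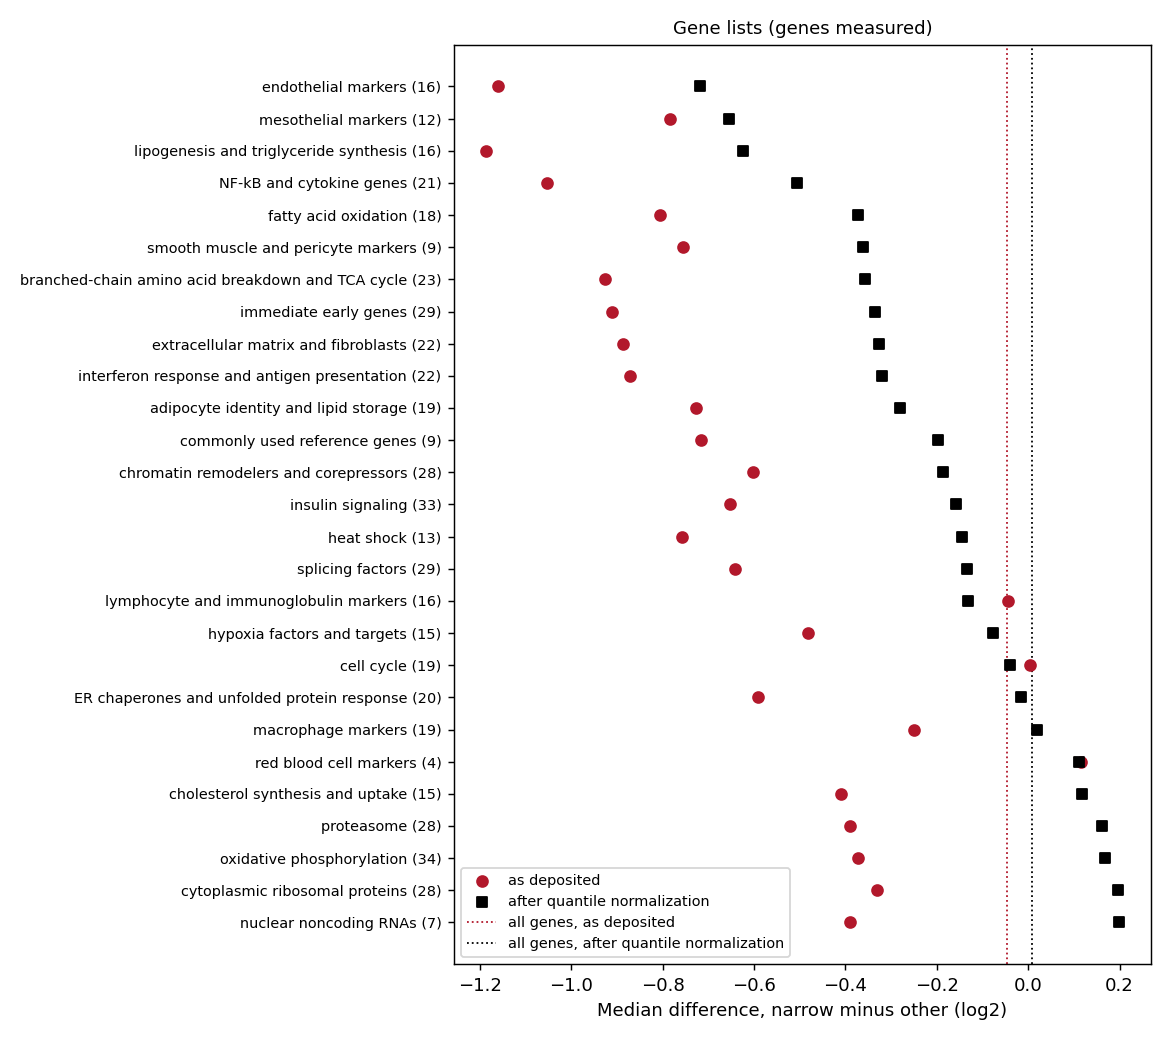
Median log2 difference of narrow-range minus other arrays (horizontal axis) of 27 gene lists, with the number of genes measured in parentheses, as deposited (circles) and after quantile normalization (squares). Dotted lines give the medians of all 18193 genes (−0.05 and 0.01), and the medians range between −1.19 and 0.12 as deposited and between −0.72 and 0.20 after quantile normalization. Most lists hold genes of high level, where differences as deposited were larger, so the lines are no level-matched reference.

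The narrow-range arrays of D and E mice could be set against other arrays of their own genotype, which share no mice. Across all probe sets the difference in D mice (7 narrow-range, 2 other) and that in E mice (3 and 5) correlated with Spearman's rho of 0.593 as deposited and 0.528 after quantile normalization. Of 951 probe sets at least 2-fold higher in D mice after quantile normalization, 400 (42.1%) were so in E mice, and these were 28% of the 1431 higher in E mice. Of 1283 lower in D mice, 427 (33.3%) were lower in E mice, 26.6% of the 1605 lower there. The split chose arrays in both genotypes by 1 threshold, so that this resemblance is a description. Within the 28 arrays of the other groups, each probe set was given a slope per unit of lower array SD, taken within groups. A positive slope thus means higher values in arrays with a smaller SD. After quantile normalization this slope correlated with the difference in D mice at 0.225 and with that in E mice at 0.312.

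**Figure D5:**
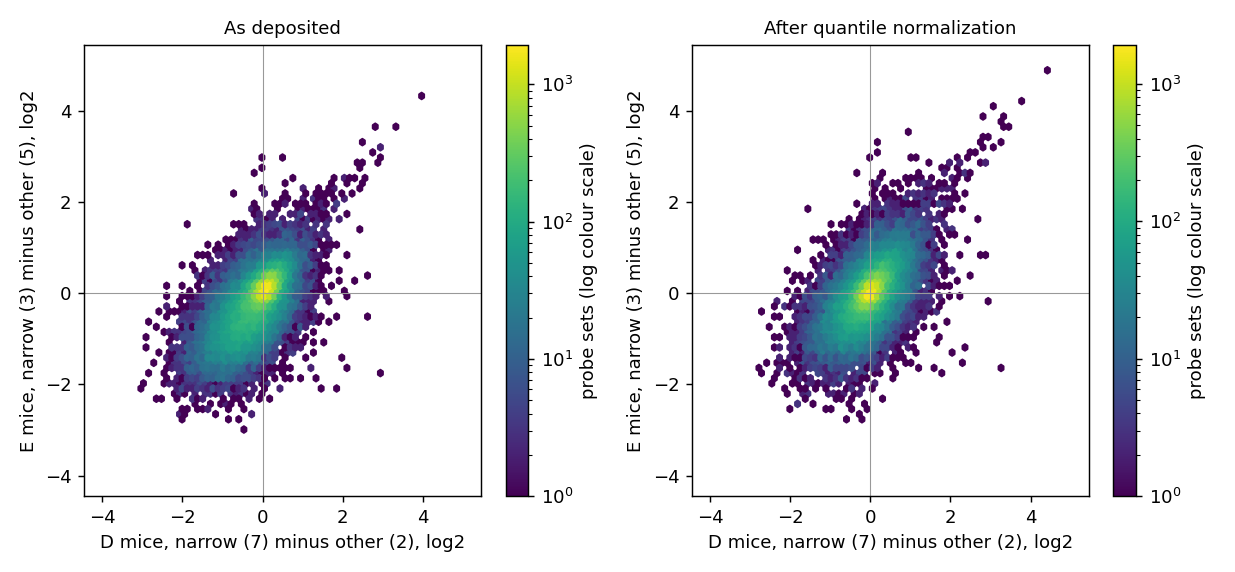
Log2 difference of narrow-range minus other arrays in D mice (horizontal axis) and in E mice (vertical axis) for each of 45037 probe sets, as deposited (left) and after quantile normalization (right), with the colour giving the number of probe sets on a log scale. Points lie along the rising diagonal (rho 0.593 and 0.528), and CRYL1 is the point furthest to the upper right.

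The genotype contrast, which the split did not use, was tested with array range as covariate. In limma, with p-values adjusted (Benjamini-Hochberg) across the 45037 probe sets and called under 0.01, 1 probe set (0.00222%) was higher in DW16 than in EW16 and 0 were lower, while 4644 had an unadjusted p under 0.05. The called probe set is annotated to 8 genes, all of the UGT1A family, so no single gene is named. It was at 9.22, 9.76 and 9.85 in narrow-range DW16 arrays, against 8.39, 8.42 and 8.84 in narrow-range EW16 arrays, and at 11.15 and 11.23 in the other DW16 arrays, against 9.52 to 10.04 in the other EW16 arrays. DW16 and EW16 did not overlap within either class of arrays but did over all 17, and the difference was 1.21 (SE 0.12, adjusted p = 0.00047). After quantile normalization 3 probe sets (0.00666%), all annotated to the same 8 genes, passed the threshold as higher in DW16, with 0 lower. Without array range in the fit, 0 passed and 6592 had an unadjusted p under 0.05.

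The insulin receptor, of which D mice have 1 intact copy, checks the genotype labels. INSR was at 9.24, 9.59 and 9.90 in narrow-range DW16 arrays, against 9.86, 10.16 and 10.16 in narrow-range EW16 arrays, and at 9.12 and 9.29 in the other DW16 arrays, against 10.28 to 11.11 in the other EW16 arrays. DW16 was lower by 0.94 on the log2 scale (SE 0.18), but this did not pass the threshold as deposited (limma adjusted p = 0.253) or after quantile normalization (−0.99, adjusted p = 0.0454). The 2 further INSR probe sets, at 3.93 to 5.33 in all 17 arrays, differed by −0.15 and 0.07. IRS1 differed by −0.50 (SE 0.22, adjusted p = 0.462) and APOE, deleted in all mice, by 0.24 (SE 0.14, adjusted p = 0.580).

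Whether the difference between narrow-range and other arrays itself differed between D and E mice was tested as the interaction of genotype and array range. In limma 0 of 45037 probe sets (0%) passed an adjusted p of 0.01, as deposited and after quantile normalization, with 5775 and 6556 at an unadjusted p under 0.05 and a smallest adjusted p of 0.0505 and 0.149. With only 2 other DW16 arrays this rested on few mice: without DW16 mouse 8 the test called 94 probe sets, and without EW16 mouse 4 it called 754. In simulated data of this design the interaction test found 24 of 100 probe sets given a change of 1 on the log2 scale and 82 of 100 given a change of 2. The simulated noise was independent between probe sets, so this recovery need not hold for these arrays.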

How the data were processed

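Adipocyte RNA of 45 mice was hybridized to Affymetrix MG430-2.0 arrays, 1 per mouse, scanned with global scaling and normalized by the authors with RMA express. The deposited values are log2 expression per probe set. Its version is not given in the sources used here, nor whether the 45 arrays were normalized jointly. The study's text mentions a quantile normalization intended to make conditions comparable, without naming the arrays it covered, and the deposited distributions still differ between arrays. All deposited columns were used (0 left out).

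DW16 (n = 9) and EW16 (n = 8) followed the labels, and the division into narrow-range and other arrays followed a fixed boundary of the 95th percentile. The members and gene lists were chosen with earlier results of these data known. The narrow-range contrast was fitted with limma 3.58.1 in R 4.3.3, with genotype as covariate, and no test was drawn from it. Genotype (with array range) and the interaction were tested by limma with Benjamini-Hochberg adjustment over 45037 probe sets at 0.01, without a filter on level. In simulated data the genotype test found 82 of 100 probe sets given a change of 1 on the log2 scale and 98 of 100 given a change of 2, with 2 false calls. The simulated noise was independent between probe sets and held no interaction of genotype and array range. Its recovery and false calls therefore need not hold for these arrays. Nothing states how mice were housed or processed together, so p-values measure the spread between these samples, and the number of arrays limits the precision.

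Symbols came from the platform annotation: 34945 probe sets name 1 gene, 932 name several and 9160 name none, and several probe sets read 9010 of the 18193 genes. A list gene was read from its most highly expressed probe set, and 524 of 576 list entries were measured. Named genes are the 12 highest and 12 lowest differences after quantile normalization among probe sets with 1 symbol that did not overlap between the arrays on both scales and kept their sign in D and E mice (432 higher and 1260 lower met this), the 3 members of each list with the largest difference, called probe sets, the deleted genes, KLF4, IRS2, TSC2, and adipocyte markers. The probe set called for genotype, which names no single gene, and the further probe sets of named genes were chosen after their values were seen.

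Alternatives were quantile normalization over 45 or 17 arrays, arrays centred on the median or set to a common median and SD, each genotype alone, probe sets above the median level, eBayes with trend and robust, array weights, an adjusted p of 0.05, a replicate block, and leaving out each mouse. Leaving out the 4 least or the 6 most narrow arrays, or EW16 mice 5 to 8, and each genotype alone after quantile normalization were added after seeing the data. Tables and plots used Python 3.11.15 with NumPy 2.4.6, pandas 2.3.3, SciPy 1.17.1 and Matplotlib 3.10.9.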

Additional observations from a re-analysis of the deposited data

Results flagged for a closer look

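Of 56 sets of values compared for a sample standing apart from its group, 1 was found, and chance gives about 1 in 20. After quantile normalization, NOTCH4 was at 9.86 in DW16 mouse 9, the highest of the 7 other 16-week Western arrays, and the gap to the next array was 0.641 of the whole range. The narrow-range arrays had NOTCH4 at 6.56 to 7.22 on this scale.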

How the results depend on the processing

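As deposited, 2909 probe sets differed at least 2-fold between narrow-range and other arrays, against 1815 with quantile normalization over 45 arrays, 1531 over the 17 arrays, and 1896 without the 6 most narrow arrays (441 higher, 1455 lower). Leaving out 1 mouse gave 2469 to 3645. After quantile normalization the 1815 became 3036 in E mice alone, and 1664 to 2348 with 1 mouse left out. DW16 mouse 9 gave the highest counts when left out.

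The genotype test called 1 probe set as deposited, 3 after quantile normalization, 2 with array weights, 2 above the median level and 2 at an adjusted p of 0.05. It called 0 without array range, 0 in narrow-range arrays alone (1679 at an unadjusted p under 0.05), 0 in the other arrays alone (9531) and 0 without EW16 mice 5 to 8 (1637), where fewer arrays entered. Leaving out 1 mouse gave 1 to 2. The interaction test called 0, and 0 to 754 with 1 mouse left out (754 without EW16 mouse 4, 94 without DW16 mouse 8, 0 without any other). The causes were not tested.

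With replicate number as a block over 16 mice, the genotype test called 0 (1760 at an unadjusted p under 0.05), against 1 in the same mice without it (2363), and the interaction test 0. Same-numbered D and E mice deviated from their group and class with correlations of −0.12 to 0.48, over 0.1 in 3 of 8 pairs, and from their genotype alone with −0.44 to 0.53, over 0.1 in 5 of 8 pairs, so the numbers are not shown to pair mice.

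Of 117 named probe sets, 82 were past 2-fold as deposited, and 0 of these turned their sign under quantile normalization, centring or a common median and SD. Of the 35 within 2-fold, 8 turned under at least 1 of these scalings (ADIPOQ, FABP4, HBA-A1, INSR, IRS1, LPL, PPARG and RETN). Of 27 list medians, 7 had another sign after quantile normalization over all arrays, 1 after centring and 8 with a common median and SD.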
